A study of Mus musculus with 16 samples.

Results

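A group of 9 genes that PPAR receptors are known to switch on was followed across 16 mouse hearts. The 9 genes act in the supply of fatty acids to heart muscle cells or in their handling there. They are Cd36, Slc27a1, Vldlr, Lpl, Angptl4, Fabp3, Acot1, Acot2 and Ucp3, 9 of 22180 genes on the arrays. They were chosen by name, with earlier results of these data known. The 11 probe sets that list 1 of them as their only gene symbol read them. Fabp3 and Lpl have 2 probe sets each, which were averaged. All mice were C57Bl/6J and 32 weeks old, and hearts were taken 7 hours into the light phase. The 4 groups of 4 mice were wild-type (WT) mice on standard chow (SC), WT mice on a high-fat diet (HFD), and mice homozygous for Clock delta 19 (below, Clock mice) on each diet, which was given for 24 weeks. The labels call the Clock mice transgenic. The delta 19 allele is known to give a CLOCK protein that still binds its partner but activates transcription poorly. The myocardium was read whole, 1 Affymetrix array per mouse, so fewer cells of a type and less RNA per cell cannot be told apart.

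Fatty acids are the main fuel of the adult heart. They reach it bound to albumin or in lipoproteins, from which lipoprotein lipase releases them on the capillary wall, and they are taken up, bound and coupled to coenzyme A inside the muscle cell. Inside the cell they also bind PPAR alpha, a nuclear receptor that pairs with RXR on DNA and raises the transcription of genes for their own uptake and oxidation. A diet rich in fat and fasting are both known to act on these genes through that receptor, and the clock is known to time many of them over the day.

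Each value below is a log2 difference from the median of that probe set over the 16 arrays, as the authors deposited it, so hearts can be compared for a gene, but genes cannot be compared in level. The sources used here give neither the log base nor the sign; base 2 was assumed, with positive values for more transcript. Because levels are gone, cardiac markers could not be used to check that the tissue is myocardium. Dbp and Nr1d1, which CLOCK drives, were lower in each of the 8 Clock than in each of the 8 WT hearts, by -2.39 ± 0.19 (adjusted p = 2.03e-06) and -1.04 ± 0.08 (adjusted p = 9.74e-07) averaged over the diets. The WT SC hearts varied widely in both genes. Dbp ran from 0.37 to 2.29 in them (SD 0.83, against 0.28 in WT HFD hearts). Nr1d1 ran from 0.30 to 1.01 (SD 0.30, against 0.0042 in WT HFD hearts). What this spread means for the comparisons that use WT SC hearts was not tested. Array medians lay between -0.00154 and 0.00281 and array SDs between 0.111 and 0.159. Every array correlated more with its own group than with the others, least clearly Clock SC replicate 4 (0.00508 against -0.0525). An error after ± is the standard error of a limma fit over all genes and 16 arrays unless called SD, p-values were adjusted by Benjamini-Hochberg over all 22180 genes, and an adjusted p under 0.05 counts as passing.

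PPAR and RXR bind a direct repeat of the hexamer AGGTCA with any 1 base between the copies. The 250 bases before each start were searched for it on both strands, allowing 2 mismatches, for the hexamer alone, which the repeat contains, and for the E-box CACGTG, to which CLOCK and BMAL1 bind. The sequences are from RefSeq on GRCm38.p6. Cd36 is shown because the diet separated all its values, Ucp3 because it had the widest diet difference in Clock hearts, and Acot1 because it had the largest rise that passed. Each is printed 5′ to 3′ on the strand of the gene and ends 1 base before the start, with capitals for matches to the repeat or the hexamer.
Cd36 (chr5:17835897-17836146, minus strand): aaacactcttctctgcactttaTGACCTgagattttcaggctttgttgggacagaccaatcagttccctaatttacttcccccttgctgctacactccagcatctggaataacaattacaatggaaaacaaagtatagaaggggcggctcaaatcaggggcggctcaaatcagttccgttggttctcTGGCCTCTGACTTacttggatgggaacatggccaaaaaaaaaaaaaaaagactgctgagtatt
Ucp3 (chr7:100472741-100472990, plus strand): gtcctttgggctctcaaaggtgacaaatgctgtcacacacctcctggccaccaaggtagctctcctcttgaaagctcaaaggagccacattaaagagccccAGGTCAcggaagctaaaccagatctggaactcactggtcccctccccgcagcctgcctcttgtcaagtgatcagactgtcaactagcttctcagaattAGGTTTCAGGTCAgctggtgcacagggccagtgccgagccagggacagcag
Acot1 (chr12:84009252-84009501, plus strand): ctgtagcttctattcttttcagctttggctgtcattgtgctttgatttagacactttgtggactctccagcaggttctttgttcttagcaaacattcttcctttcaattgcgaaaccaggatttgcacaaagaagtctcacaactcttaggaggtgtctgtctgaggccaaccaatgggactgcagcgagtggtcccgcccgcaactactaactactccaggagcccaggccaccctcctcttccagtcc
Ucp3 held AGGTTTCAGGTCA at positions -51 to -39, counted back from the start, and a further AGGTCA at -149 to -144; the last letters of its repeat are an AGGTCA too. Cd36 held TGGCCTCTGACTT at -63 to -51, a match on the other strand, and TGACCT at -228. Acot1 held neither, so its window is all in lower case. The Cd36 window lies inside the span of its gene (chr5:17781690-17888959), before an internal start. Which start these hearts use was not tested. Of 32851 starts of all genes in the table, 3.24% held the repeat with up to 2 mismatches, 0.0335% held it without mismatch and 14.0% held the hexamer. The table had 10 starts for 7 members (Slc27a1 3, Vldlr 2), and the repeat was found in 2 of them. Lpl and Angptl4 were not matched. The E-box was found at 1 start, the third of Slc27a1, at -202 (6.02% of all starts). The window of that start also lies inside the span of its gene (chr8:71568728-71587307), before an internal start. The E-box site, with capitals for the E-box, is:
Slc27a1 (chr8:71570380-71570409, plus strand): ggggtgtctagcCACGTGgtcagtgcttgg
These matches describe the letters in the window and were not tested for binding.

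On HFD the receptors that bring fat into the cell and the cytosolic thioesterase were higher than on chow. Averaged over the genotypes, Cd36, Vldlr and Acot1 rose, by 1.10-fold, 1.14-fold and 1.35-fold, and none of the 9 genes fell. The 3 that passed are 3 of 9, where 0.812% of all genes rose in this comparison (180 of 22180), 0.726% fell and 1.54% changed in either direction. Since the 9 were chosen with earlier results of these data known, such shares describe the group and do not test it. At an unadjusted p under 0.05, 6 of 9 differed, beside 13.2% of all genes. All 9 fitted differences were above 0, from 0.0075 for Fabp3 to 0.44 for Acot1, with a median of 0.21 beside -0.0015 over all genes. The diets can also be compared in each genotype by itself. Within WT hearts (0.352% of all genes, 0.185% higher) or Clock hearts (0.0902%, 0.0496% higher) alone 0 of 9 passed. Unadjusted p was under 0.05 for 4 of 9 members in WT and for 6 of 9 in Clock hearts, beside 10.7% and 8.42% of all genes. The diets did not overlap, HFD being higher, for 1 of 9 in WT hearts (2.8% of all genes) and for 4 of 9 in Clock hearts (2.89%). The averages use the same arrays as the comparisons within a genotype.

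**Figure D1:**
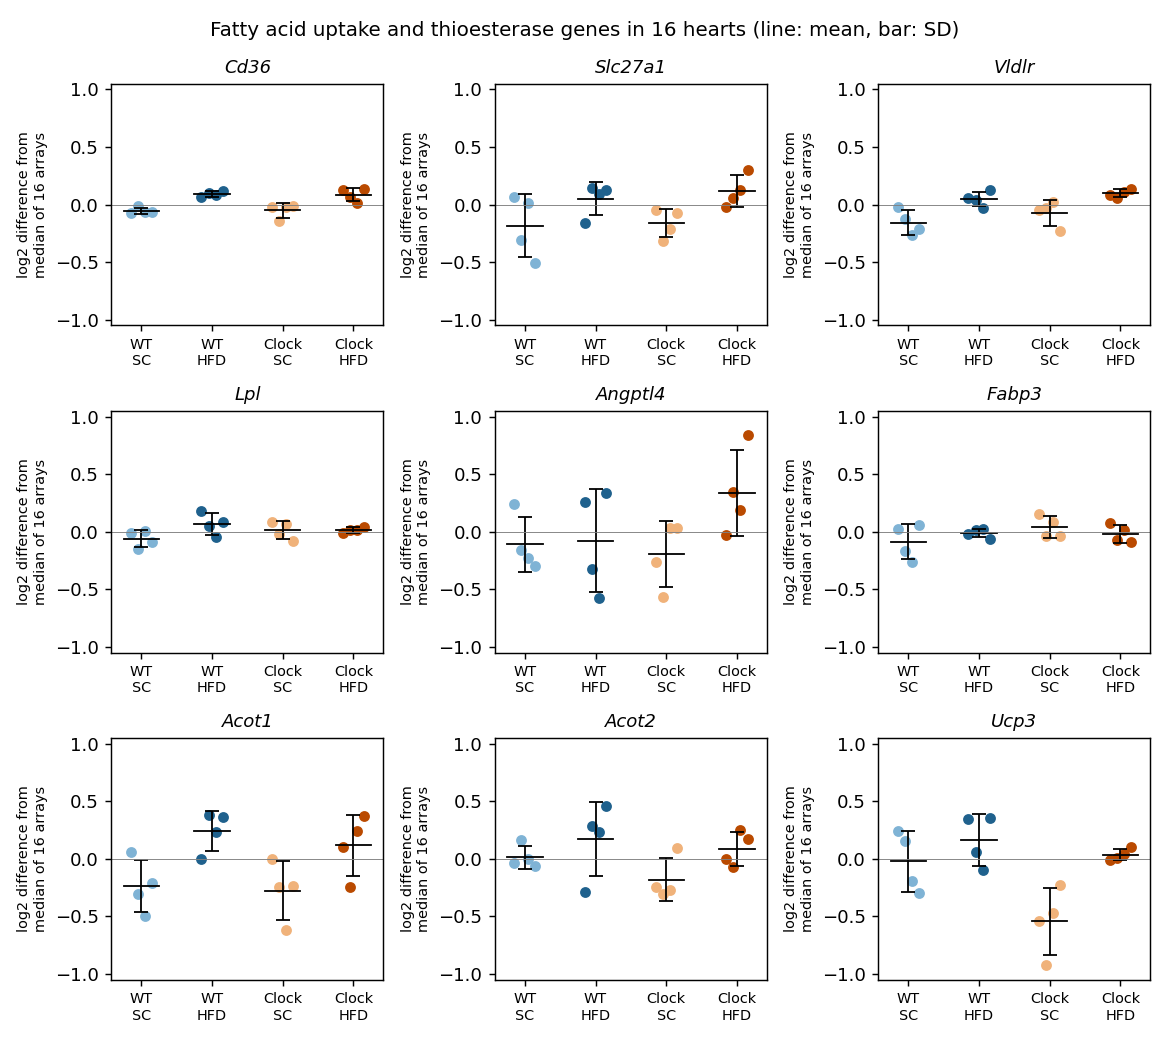
Each panel shows 1 gene, with the log2 difference from the median of the 16 arrays on the vertical axis and the 4 groups on the horizontal axis. Points are single hearts, the line is the mean and the bar the SD (n = 4). Cd36 separates HFD from SC with no overlap, and Angptl4, Acot1 and Ucp3 spread widest. The values of the diets overlap in both genotypes for Lpl, Angptl4, Fabp3, Acot1 and Acot2.

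Cd36 (chr5:17781690-17888959 on GRCm38.p6) encodes the membrane glycoprotein that takes up long-chain fatty acids and is the main route for them into heart muscle. It lay at -0.073, -0.015, -0.065 and -0.066 in the WT SC hearts and at 0.062, 0.10, 0.081 and 0.12 in the WT HFD hearts. In Clock hearts it lay at -0.018, -0.14, -0.024 and -0.017 on SC and at 0.13, 0.070, 0.015 and 0.13 on HFD. Every HFD heart was above every SC heart, in both genotypes, and it was the only member of the 9 of which that was true. Over all genes 0.176% were higher in that way. The rise was 0.14 ± 0.03 (adjusted p = 0.0244), with 0.15 ± 0.04 in WT hearts (adjusted p = 0.154) and 0.14 ± 0.04 in Clock hearts (adjusted p = 0.304). The interaction of genotype and diet was -0.0096 ± 0.059, with a 95% interval of -0.13 to 0.11.

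Vldlr (chr19:27216480-27254231), the receptor for very low density lipoproteins, which docks triglyceride-rich particles where lipoprotein lipase works on them, lay at -0.021, -0.13, -0.27 and -0.21 in WT SC and at 0.054, 0.042, -0.030 and 0.13 in WT HFD hearts. It lay at -0.050, -0.027, 0.021 and -0.23 in Clock SC and at 0.081, 0.060, 0.11 and 0.14 in Clock HFD hearts. The Clock diets did not overlap, and the WT diets overlapped by WT HFD replicate 3 against WT SC replicate 1. Vldlr rose by 0.19 ± 0.04 (adjusted p = 0.0381), with 0.21 ± 0.06 in WT and 0.17 ± 0.06 in Clock hearts. Slc27a1 (chr8:71568728-71587307), the fatty acid transport protein FATP1, which also couples fatty acids to coenzyme A, lay at 0.064, -0.31, 0.018 and -0.51 in WT SC and at -0.16, 0.14, 0.094 and 0.13 in WT HFD hearts. It lay at -0.050, -0.31, -0.21 and -0.071 in Clock SC and at -0.018, 0.059, 0.13 and 0.30 in Clock HFD hearts, which did not overlap. The diet difference was 0.26 ± 0.08 and did not pass (adjusted p = 0.135). The spread over WT SC hearts (SD 0.27, n = 4) was the widest of the 4 groups for this gene.

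Acot1 (chr12:84009502-84017670), the cytosolic enzyme that cleaves acyl-CoA into fatty acid and coenzyme A, lay at 0.059, -0.30, -0.49 and -0.21 in WT SC and at 0.0030, 0.38, 0.23 and 0.36 in WT HFD hearts. In Clock hearts it lay at -0.0030, -0.24, -0.62 and -0.24 on SC and at 0.11, -0.25, 0.24 and 0.37 on HFD. Clock HFD replicate 2 was as low as the SC hearts, and in WT the diets overlapped by 1 SC heart. Acot1 rose by 0.44 ± 0.10 (adjusted p = 0.0444), with 0.48 ± 0.15 in WT and 0.39 ± 0.15 in Clock hearts. Acot2 (chr12:83987861-83993877), the mitochondrial form and a close paralogue that lies next to Acot1, had a difference of 0.21 ± 0.09 (adjusted p = 0.309). Its WT HFD hearts ran from -0.29 to 0.46 and its WT SC hearts from -0.063 to 0.16, so that the HFD hearts reached both below and above the SC hearts. The coding sequences of the pair are alike, and whether each probe set also reads the other transcript was not tested, so the split between them is uncertain. Of the other acyl-CoA thioesterases, 0 of 17 measured passed in either direction, with a median difference of 0.010.

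**Figure D2:**
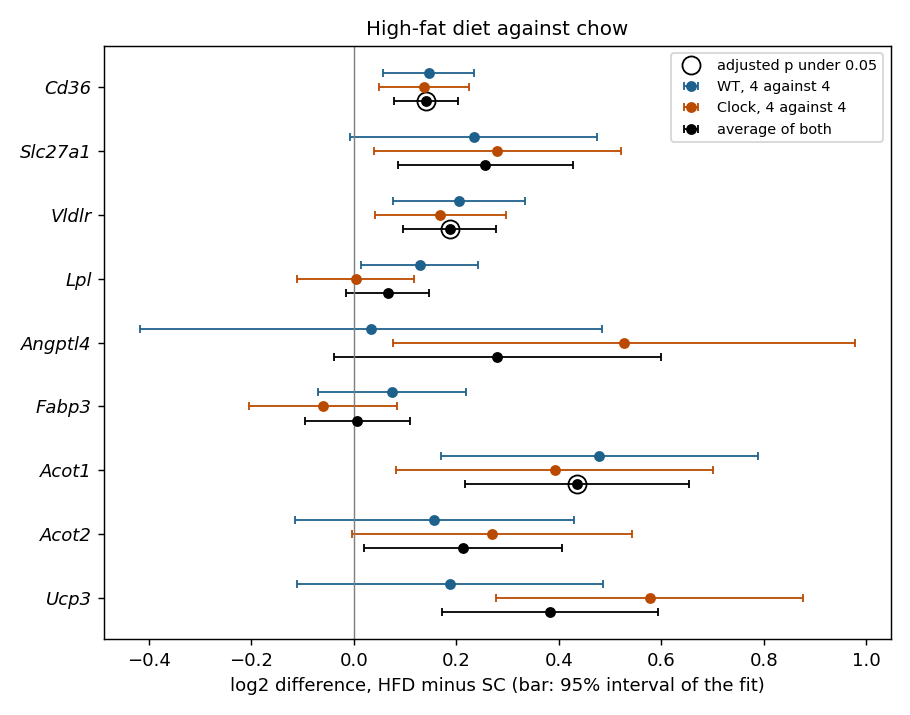
The horizontal axis gives the log2 difference of HFD minus SC for each of the 9 genes, as a point with the 95% interval of the fit, in WT hearts, in Clock hearts and averaged over both. Circles mark adjusted p under 0.05, which Cd36, Vldlr and Acot1 reach in the average only, and the WT and Clock intervals overlap for every gene.

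Ucp3 (chr7:100472991-100486432), an inner mitochondrial membrane carrier of muscle that responds to fatty acid supply, lay at 0.24, 0.16, -0.19 and -0.29 in WT SC and at 0.34, 0.059, -0.098 and 0.36 in WT HFD hearts. It lay at -0.54, -0.92, -0.47 and -0.23 in Clock SC and at -0.0061, 0.0061, 0.040 and 0.10 in Clock HFD hearts. In Clock hearts the diets did not overlap, and the 4 HFD hearts lay close together (SD 0.049 against 0.29 on SC). The diet difference was 0.58 ± 0.14 in Clock hearts (1.49-fold, adjusted p = 0.140 by limma) and 0.19 ± 0.14 in WT hearts (adjusted p = 0.720). The average of 0.38 ± 0.10 did not pass (adjusted p = 0.0694), nor did the interaction of 0.39 ± 0.20 (95% interval -0.033 to 0.81, adjusted p = 0.982).

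Lpl and Angptl4 act outside the muscle cell, where the lipase splits triglycerides and ANGPTL4 inactivates it. Angptl4 (chr17:33774900-33781575) lay at 0.24, -0.16, -0.23 and -0.30 in WT SC and at 0.25, -0.32, -0.58 and 0.34 in WT HFD hearts. In Clock hearts it lay at -0.26, -0.57, 0.035 and 0.031 on SC and at -0.031, 0.34, 0.19 and 0.84 on HFD. The WT HFD hearts fell on either side of the SC hearts, while 3 of 4 Clock HFD hearts lay above all Clock SC hearts. The diet difference was 0.53 ± 0.21 in Clock hearts (adjusted p = 0.493) and 0.034 ± 0.21 in WT hearts (adjusted p = 0.981), and the interaction of 0.49 ± 0.30 (95% interval -0.14 to 1.13) did not pass. Lpl (chr8:68880555-68906932), as the mean of its 2 probe sets, lay between -0.15 and 0.18 in the 16 hearts. Its diet difference was 0.066 ± 0.038 (95% interval -0.015 to 0.15). The 2 probe sets of Lpl correlated at only 0.12 over the arrays, and in WT HFD replicate 1 they read -0.041 and 0.41. On HFD the Clock minus WT difference was 0.067 ± 0.066 by the former and -0.17 ± 0.07 by the latter. In WT hearts the diet difference was 0.054 ± 0.066 by the former and 0.20 ± 0.07 by the latter, neither passing. Fabp3 (chr4:130308738-130315463), the fatty acid binding protein that carries fatty acids through the cytosol of heart muscle, had the smallest diet difference of the 9, 0.0075 ± 0.048 (95% interval -0.094 to 0.11). It ranged from -0.26 to 0.15, and its 2 probe sets correlated at 0.45.

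The calls in the average over genotypes are close to the threshold. When each array was left out in turn, Cd36 passed in 14 of 16 fits, Acot1 in 4, Vldlr in 3 and Ucp3 in 3. Cd36 was lost without Clock HFD replicate 1 (adjusted p = 0.0523) or Clock HFD replicate 4 (adjusted p = 0.0546), and then 0 of 9 passed. Only 1 passed without Clock HFD replicate 3, Clock SC replicate 2, WT HFD replicate 2 or 4, or WT SC replicate 2, 3 or 4. Cd36 also missed the threshold when the 25% of genes with the lowest SD were left out of the fit (adjusted p = 0.0815), Vldlr with a trended, robust variance model (adjusted p = 0.0506) and Acot1 with repeated quantile normalization (adjusted p = 0.0581) or array weights (adjusted p = 0.0526). The differences themselves moved less, with ranges of 0.13 to 0.15 for Cd36, 0.16 to 0.21 for Vldlr, 0.38 to 0.50 for Acot1 and 0.32 to 0.44 for Ucp3 over those 16 fits.

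Of the wider set of PPAR-responsive genes of muscle and heart, those that passed with the diet were all higher on HFD. Of 34 further genes listed 29 were measured, and averaged over the genotypes 13 rose, 0 fell and 16 did not pass, with a median of 0.20. This list too was chosen with earlier results of these data known, so the count is a description. Ephx2, the soluble epoxide hydrolase of lipid epoxides, rose by 0.51 ± 0.04 (adjusted p = 3.26e-05), and Pdk4, the kinase that shuts off pyruvate dehydrogenase, rose by 0.55 ± 0.11 (adjusted p = 0.0244). Cidea, a lipid droplet protein, rose by 0.33 ± 0.06 (adjusted p = 0.0172) and Acadvl, the very long chain acyl-CoA dehydrogenase, by 0.33 ± 0.04 (adjusted p = 0.000868). In WT hearts 5 of the 29 passed, all higher, the 4 largest being Ephx2 (0.53 ± 0.06), Acadvl (0.33 ± 0.06), the carnitine palmitoyltransferase gene Cpt2 (0.31 ± 0.05) and Hadha, of the trifunctional protein (0.31 ± 0.05). In Clock hearts 3 passed, all higher: Ephx2 (0.48 ± 0.06), Acadvl (0.32 ± 0.06) and Hadha (0.30 ± 0.05). Cd36, Vldlr and Acot1 differed by 0.14 to 0.44 and passed in neither genotype alone. The same was true of Pdk4, Slc25a20, Ech1, Eci2, Decr1, Plin2, Plin4 and Cidea of the list, which passed in the average only.

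**Figure D3:**
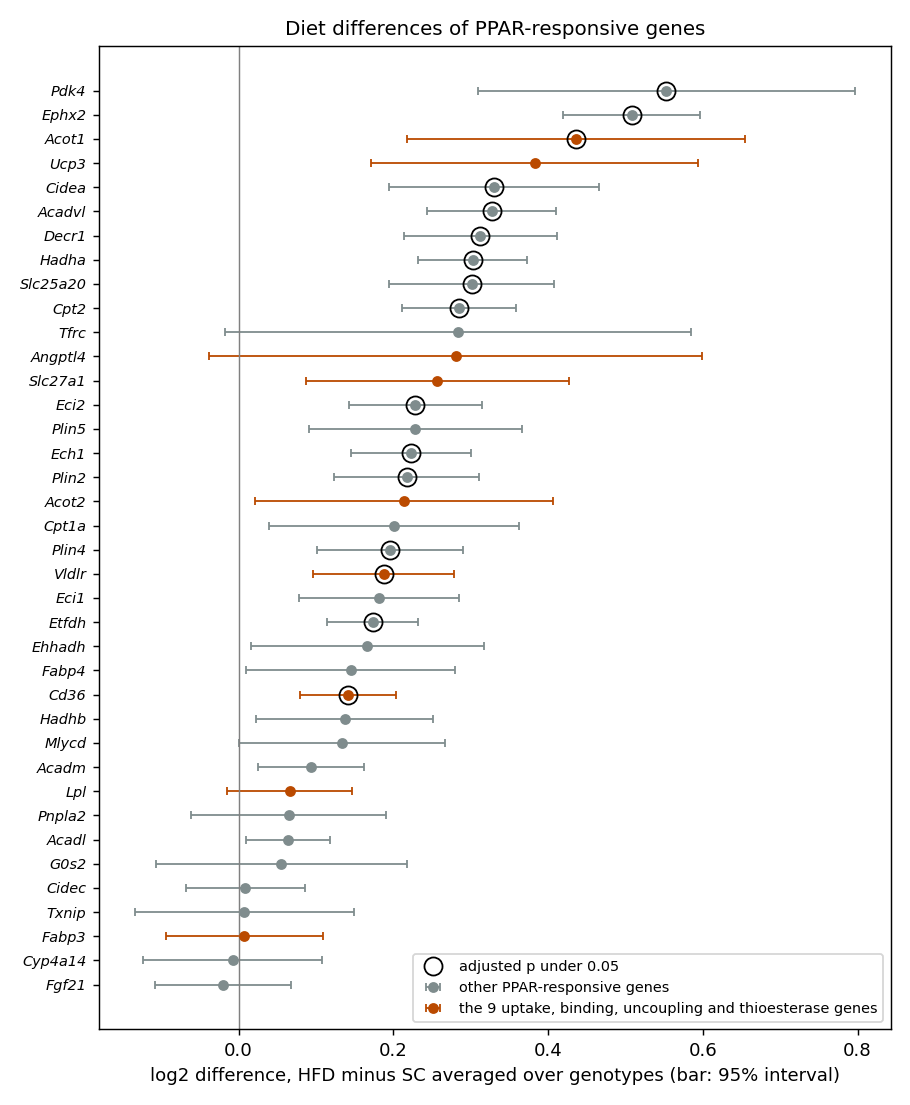
The horizontal axis gives the log2 difference of HFD minus SC averaged over the genotypes, with its 95% interval, for the 9 genes (orange) and the 29 other PPAR-responsive genes measured (grey), in order of size. Circles mark adjusted p under 0.05, reached by 3 of the 9 and 13 of the 29, with Pdk4 and Ephx2 at the top and Acot1 next.

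Few genes of the receptors and the other steps of uptake passed with the diet. Of 17 measured PPAR and RXR receptors and their coactivators 0 passed, with Ppara, the receptor itself, at 0.056 ± 0.053. Of 25 measured genes of fatty acid transport, binding and activation outside the 9, 1 rose, the acyl-CoA binding protein gene Dbi (0.24 ± 0.05, adjusted p = 0.0250). Of 18 measured partners of lipoprotein lipase and lipoprotein receptors, 2 rose. They were Mylip, the ubiquitin ligase that degrades LDL and VLDL receptors (0.36 ± 0.05, adjusted p = 0.00230), and Lipe, the hormone-sensitive lipase (0.22 ± 0.05, adjusted p = 0.0371). Mylip thus rose beside Vldlr, a target of its protein. Gpihbp1, which anchors the lipase to capillaries, had a difference of 0.10 ± 0.05 (adjusted p = 0.445). Of 6 measured uncoupling proteins and related carriers other than Ucp3 0 passed.

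Lpl and Cd36 are also known in fat and endothelial cells, so markers of those cells were read beside the diet comparison. Of 10 white adipocyte markers 1 rose with HFD (Lipe) and 0 fell, with the mean of the list in single hearts from -0.056 to 0.021 in WT HFD, -0.056 to -0.0019 in WT SC, -0.036 to 0.064 in Clock HFD and 0.013 to 0.10 in Clock SC hearts. The defining genes of white and brown fat differed by -0.033 ± 0.041 (Adipoq), -0.064 ± 0.049 (Plin1) and 0.038 ± 0.036 (Ucp1), none passing. Of 6 brown adipocyte markers 1 rose, Cidea. Of 12 endothelial markers 0 rose and 3 fell (Kdr, Emcn and Egfl7), and of 12 cardiomyocyte markers 1 rose (Ryr2) and 0 fell. The endothelial list mean in single hearts lay between -0.26 and -0.17 in WT HFD, -0.089 and 0.064 in WT SC, -0.028 and 0.16 in Clock HFD and 0.023 and 0.18 in Clock SC hearts. Of 11 fibroblast markers 1 rose (Postn) and 0 fell, with a median diet difference of 0.11 over the list, 0.14 in WT and 0.043 in Clock hearts. The fibroblast list mean in single hearts lay between -0.18 and 0.14 in WT HFD, -0.25 and -0.085 in WT SC, -0.072 and 0.24 in Clock HFD and -0.013 and 0.093 in Clock SC hearts. Since values are centred, markers at background cannot be told from expressed ones, and the part of these cells in the diet differences was not tested.

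Between Clock and WT hearts none of the 9 genes passed, on chow (0 of 9, beside 0.491% of all genes), on HFD (0 of 9, beside 1.9%) or averaged over the diets (0 of 9, beside 3.88%, 2.44% higher and 1.44% lower). At an unadjusted p under 0.05, 1 of 9 differed on chow, 0 of 9 on HFD and 1 of 9 in the average, beside 9.77%, 13.5% and 16.5% of all genes. In both cases it was Ucp3, lower in Clock SC than in WT SC hearts by -0.52 ± 0.14 (adjusted p = 0.147 by limma). Clock SC hearts held the 3 lowest Ucp3 values of the 16, and the Clock and WT SC hearts overlapped by Clock SC replicate 4 at -0.23 and WT SC replicate 4 at -0.29. On HFD the difference was -0.13 ± 0.14, and averaged over the diets -0.32 ± 0.10 (adjusted p = 0.0887), which passed without Clock SC replicate 4 (adjusted p = 0.0344). That heart had the highest Ucp3 value of its group, so leaving it out widens the difference. On chow the adjusted p by limma ran from 0.0578 without that heart to 0.346 without Clock SC replicate 2. For Cd36 the Clock and WT means differed by -0.0006 ± 0.029 averaged over the diets, with a 95% interval of -0.063 to 0.062. The Clock minus WT differences of the other 7 genes averaged over the diets ran from -0.14 ± 0.09 for Acot2 to 0.17 ± 0.15 for Angptl4.

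**Figure D4:**
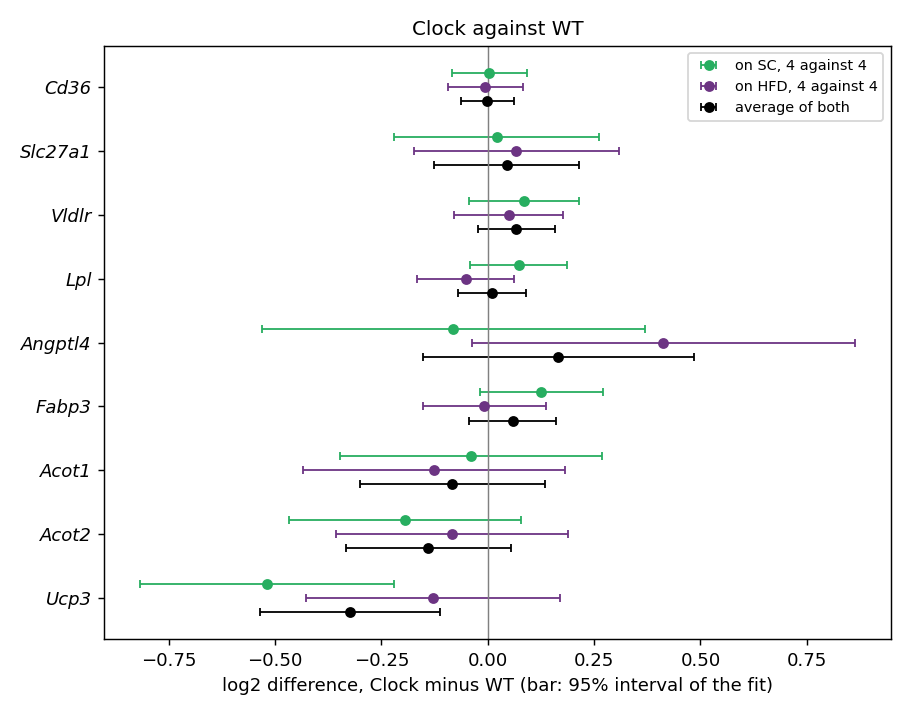
The horizontal axis gives the log2 difference of Clock minus WT for each of the 9 genes, on SC, on HFD and averaged, as points with the 95% interval of the fit. No gene reached adjusted p under 0.05. Ucp3 on SC lies farthest from 0, at -0.52, and Cd36 has the narrowest interval, around 0.

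Around the 9, parts of the same pathway did differ by genotype. Averaged over the diets 4 of 17 receptors and coactivators were higher in Clock hearts and 0 lower. They were Ppara (0.24 ± 0.05, adjusted p = 0.0160), Lpin1, a phosphatidate phosphatase and coactivator (0.22 ± 0.05), Pparg (0.19 ± 0.05) and Rxrb (0.18 ± 0.04). On HFD alone Pparg was the 1 that passed, where 1.13% of all genes were higher. Of the 29 further PPAR-responsive genes 5 were lower and 0 higher, the 4 largest being Cpt1a, the liver-type carnitine palmitoyltransferase (-0.35 ± 0.08, adjusted p = 0.0136), the arrestin-family gene Txnip (-0.28 ± 0.07), and the isomerase genes Eci2 (-0.24 ± 0.04) and Ech1 (-0.21 ± 0.04). On chow alone Ech1 and Eci2 were the 2 that passed, where 0.252% of all genes were lower. The lipoprotein receptor genes Sort1 (0.23 ± 0.05) and Lrp1 (0.23 ± 0.04), were higher, the former also on HFD alone. Of the 25 transport genes Fabp7 was higher (0.29 ± 0.07) and Nrp1, a receptor for VEGF-B, lower (-0.34 ± 0.07). The endothelial list had 6 of 12 and the fibroblast list 4 of 11 markers higher in Clock hearts, and the part of these cells in the genotype differences was not tested.

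The interaction of genotype and diet passed for 0 of 9 members and for 0 of 22180 genes by limma (0%), with 0 of 9 and 1122 genes (5.06%) at an unadjusted p under 0.05. No member was therefore shown to respond to the diet differently in the genotypes, and the intervals for Angptl4 and Ucp3 still allow differences as wide as 1.13 and 0.81.

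Within groups, Angptl4 and Ucp3 followed each other from heart to heart. After each group's mean was taken out, the pair correlated over the 16 arrays with Pearson's r = 0.78 and Spearman's rho = 0.81 (permutation within groups, two-sided p = 2e-05 and 0.00013, adjusted over 36 pairs of members 0.00072 and 0.00468). Without the 2 arrays farthest from the median of Angptl4 r was 0.82, and leaving out each array in turn gave 0.74 to 0.84. It was 0.87 in the 8 WT, 0.68 in the 8 Clock, 0.87 in the 8 HFD and 0.88 in the 8 SC arrays. Thus Angptl4 and Ucp3 were both high in WT HFD replicates 1 and 4 and both low in WT HFD replicate 3. No other pair of members passed: the 36 correlations ran from -0.54 to 0.78, and 27 were above 0. Acot1 with Acot2 reached 0.45 (permutation p = 0.0878, adjusted p = 0.654). The link of Angptl4 and Ucp3 was not special to them. Of 22171 other genes, with group means taken out, Prkcd followed Ucp3 most closely (r = 0.93). Cpt1a ranked 30 (r = 0.77) and Pdk4 ranked 33 (r = 0.77), while Dbp reached only 0.15. Elob followed Angptl4 most closely (r = 0.86), and Dbp reached -0.038. The values for these other genes carry no test. What else varied between mice or arrays of a group was not tested.

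**Figure D5:**
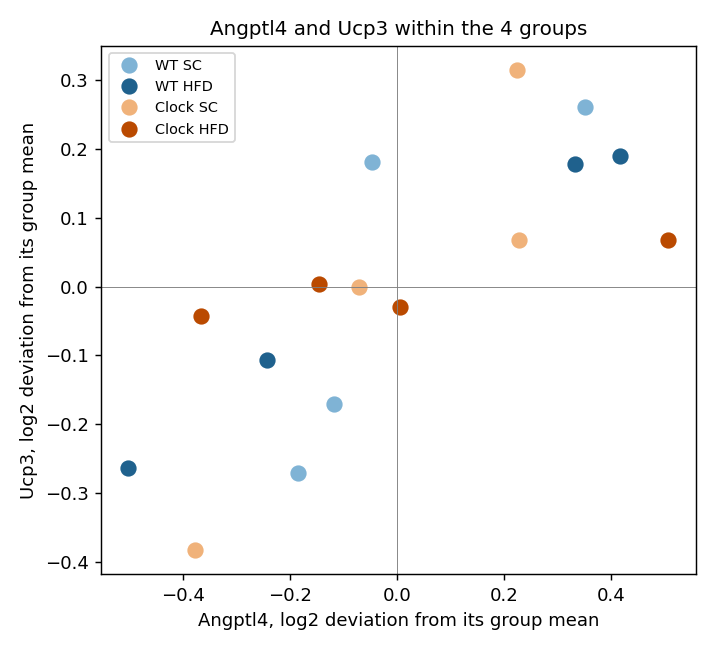
Each point is 1 heart, with the deviation of Angptl4 from its group mean on the horizontal axis and that of Ucp3 on the vertical axis, both in log2, coloured by group. Hearts high in Angptl4 for their group tended to be high in Ucp3, with r = 0.78 over the 16 hearts.

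Among all other genes, Cd36 was followed most closely over the 16 arrays by Lipe (r = 0.92), Mylip (r = 0.89) and Ephx2 (r = 0.87), as a description over hearts that share the diet groups. With group means taken out the closest were Lipe (r = 0.83), Snx29 (r = 0.83) and Tm4sf4 (r = 0.82). For Vldlr they were Scarna10 (r = 0.91), Dhx9 (r = 0.90) and Zfp790 (r = 0.89), and C1ql2 (r = 0.90), Ror1 (r = 0.88) and 2810410L24Rik (r = 0.87) with group means taken out. For Acot1 they were Fbxo9 (r = 0.86), Brpf1 (r = 0.85) and Idh1 (r = 0.84), and Snhg7 (r = 0.87), Tmem131l (r = 0.87) and Hey2 (r = 0.85) with group means taken out. Such values are the highest of 22171 genes over 16 arrays and carry no test.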

How the data were processed

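RNA (500 ng of total RNA per heart) from 16 mice was read on Affymetrix arrays, per the labels. The authors deposited log2 values (base and sign taken, not stated) for 34351 probe sets, each centred on its median over the arrays within 1e-06. How background was corrected, probes summarised and arrays normalized is not stated in the labels. Probe sets with 1 gene symbol (23521) were averaged per gene, and those with several (1814) or none listed (9016) were left out. Genes were fitted with limma 3.58.1 in R 4.3.3 (lmFit, eBayes, group means, 12 residual degrees of freedom plus 4.16 from the prior, two-sided), with 7 comparisons and Benjamini-Hochberg adjustment over 22180 genes. Within-group correlations used 100000 permutations (numpy 2.4.6). Symbols of the 9 genes matched RefSeq gene IDs of GRCm38.p6. The named genes are the 9, up to 4 passing genes of each list per comparison by size, the 3 genes most correlated with each passing member, Dbp and Nr1d1, and the defining fat markers Adipoq, Plin1 and Ucp1. The members and lists were chosen with earlier results of these data known. Gpihbp1, the genes outside the 9 set beside Angptl4 and Ucp3 and, for the diet, Ppara were named after their values were seen. Of the marker lists not described with the results, macrophage, T and B cell, neutrophil, atrial, skeletal muscle, and pericyte and smooth muscle markers had 0 genes called with the diet average, and no erythroid marker had a probe set of its own. The other settings tried were all probe sets, the probe set with the largest SD, eBayes with trend and robust, array weights, repeated quantile normalization, only the arrays compared, a replicate block, leaving out the 25% of genes with the lowest SD, and leaving out each array. Tested on simulated data with 22180 genes, 200 of them changed, the fit recovered 15.8% of changes of log2 0.15, 80.3% of 0.3 and 97.5% of 0.45 for the diet average, and 0%, 48.4% and 83.3% for HFD against SC in WT. The number of arrays limits the precision. Each array is labelled a biological replicate from 1 mouse.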

Additional observations from a re-analysis of the deposited data

Results flagged for a closer look

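In 4 of the 36 sets of 4 hearts (9 genes, 4 groups) 1 heart stood apart by a gap of 0.835 to 0.943 of the whole range, where chance gives about 1 such set in 20. Cd36 in Clock SC replicate 2 lay at -0.14, below the other 3 at -0.024 to -0.017, and in WT SC replicate 2 at -0.015, above the next at -0.065. Slc27a1 in WT HFD replicate 1 lay at -0.16, with the others at 0.094 to 0.14. Acot2 in Clock SC replicate 4 lay at 0.092, with the next at -0.24. Without Clock SC replicate 2 the diet difference of Cd36 was 0.13 (adjusted p = 0.0463 by limma).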

How the results depend on the processing

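Of the 63 differences of the 9 genes, set against up to 8 other settings, 460 of 477 values kept their direction and side of the threshold, 6 lost a call, 3 gained one and 8 changed sign, where the difference had not passed. Cd36 in Clock minus WT on SC gave -0.0027 with repeated quantile normalization, and Slc27a1 gave -0.011 with array weights and -0.021 with that normalization. Fabp3 on HFD gave 0.014 with the probe set of largest SD, where Lpl gave -0.058 for HFD minus SC in Clock and -0.040 for the genotype average. Lpl in Clock also gave -0.012 with array weights and -0.0036 with quantile normalization. Leaving out each array in turn also moved the sign of differences that did not pass. For Clock minus WT on SC, the range was Cd36 -0.0070 to 0.035, Slc27a1 -0.086 to 0.10, Angptl4 -0.16 to 0.045 and Acot1 -0.13 to 0.075. For Clock minus WT on HFD, the range was Cd36 -0.021 to 0.018, Slc27a1 -0.0040 to 0.11, Fabp3 -0.038 to 0.016 and Acot2 -0.24 to 0.012. For HFD minus SC in WT, the range was Angptl4 -0.10 to 0.20. For HFD minus SC in Clock, the range was Lpl -0.028 to 0.028. For the interaction of genotype and diet, the range was Cd36 -0.041 to 0.014, Slc27a1 -0.036 to 0.15, Vldlr -0.090 to 0.00086, Acot1 -0.20 to 0.035 and Acot2 -0.041 to 0.21. For Clock minus WT averaged over the diets, the range was Cd36 -0.0083 to 0.015, Slc27a1 -0.0093 to 0.086 and Lpl -0.0087 to 0.030. For HFD minus SC averaged over the genotypes, the range was Fabp3 -0.022 to 0.032. For the diet average, 1 member passed with the replicate block in place of 3, and leaving out each array gave 0 to 4. Cd36 did not pass without the 25% of genes with the lowest SD (adjusted p = 0.0815), where Ucp3 did (0.0236). Vldlr did not pass with trend and robust (0.0506) or the block (0.0683), nor Acot1 with array weights (0.0526), quantile normalization (0.0581) or the block (0.0580). Ucp3 passed with array weights (0.0464). For the genotype average, 1 member (Ucp3) passed under the SD filter, and leaving out each array gave 0 to 1. The other comparisons kept 0 members in every setting run. With group means taken out, same-numbered arrays of different groups correlated at -0.15 to 0.16, beside -0.20 to 0.21 for other-numbered arrays. Whether the numbers mark a pairing or a batch cannot be told from these correlations over all genes. Over all genes, leaving out 1 array gave 218 to 329 calls for the diet average in place of 341, 28 to 90 in place of 78 in WT, 6 to 27 in place of 20 in Clock, 49 to 144 in place of 109 and 241 to 490 in place of 422 for genotype on SC and HFD. The other settings gave 15 to 115 in WT, 7 to 53 in Clock and 38 to 139 for genotype on SC. The cause was not tested. In the simulated data, changes of log2 0.15 in genes drawn at random were recovered at 15.8% for the diet average. For HFD against SC in WT it was 0%. Cd36 had the smallest standard error of the 9 genes (0.029 for the diet average), so these rates need not hold for it.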
